A study of Mus musculus with 18 samples.

Results

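A set of 10 mouse genes that are read as signs of macrophage polarization or of a tissue-resident type was followed: Nos2, Arg1, Clec10a, Mrc1, Chil3, Retnla, Cd163, Cbr2, F13a1 and Folr2. They were chosen by name and not by their values. Of these, 9 were measured among 18668 gene symbols, and all 9 passed the filter on low values that 12838 genes passed. Retnla was not analysed here.

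Transcript levels were obtained from bone marrow-derived macrophages (BMDM), macrophages grown for 7 days from C57BL6 mouse marrow with M-CSF. All cells lacked Apoe, the gene of apolipoprotein E. In 9 libraries that was the only deletion (Apoe-/-), and in the other 9 Treml4, which codes for a TREM-like receptor of myeloid cells, was deleted as well (Apoe-/-/Treml4-/-, DKO). Cells of each genotype received PBS (untreated) or oxidized low-density lipoprotein (oxLDL), the modified lipid particle that loads macrophages of the artery wall, for 16 h per the design text. The amounts were 10 µg/ml (oxLDL 10) and 60 µg/ml (oxLDL 60). Each of the 6 groups held 3 replicates, called biological in the design text. The study's methods give a longer treatment than that text, and the treatment label mentions LPS, which was not resolved. LPS is itself known to induce Nos2 and other genes of classical activation, and whether any of these libraries received it cannot be told from the labels. The cells were grown in culture and are not macrophages of a lesion.

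Libraries held 39.7 M to 54.2 M reads, as recovered from the steps of the values. Treml4 stood at 1.86 to 8.39 RPKM (reads scaled by gene length and library size) in Apoe-/- libraries, and the highest DKO library held 0.0116 RPKM. All 7 macrophage markers were found, with sums of 5458 to 11692 RPKM. Lyz2 held most of that sum, at 9478 of 11352 RPKM in untreated Apoe-/- replicate 2, and Mertk was lowest at 2.20 to 6.71 RPKM. Replicate 2 of Apoe-/- and replicate 3 of DKO stood apart, as their 6 libraries held Xist at 7.25 to 14.5 RPKM and the other 12 at most 0.069. Libraries of one genotype with the same replicate number deviated together, so the number is taken as an animal below. Sex and the single animal cannot be told apart, as each genotype had 1 such animal.

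Macrophages adapt to the signals around them. Interferon and microbial products induce Nos2, the inducible nitric oxide synthase that turns arginine into nitric oxide, and this state is called classical. Interleukin 4 induces Arg1, the arginase that splits arginine into ornithine and urea, together with Chil3 (Ym1, a chitinase-like protein), Retnla (a resistin-like protein), Mrc1 (the mannose receptor CD206) and Clec10a (a galactose-binding lectin), and this state is called alternative. Cd163 (the scavenger receptor for haptoglobin and hemoglobin), Folr2 (folate receptor beta), Cbr2 (carbonyl reductase 2) and F13a1 (the catalytic chain of coagulation factor XIII) are genes by which many resident macrophages of tissues are known.

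Positions are in mm10, the build that the submitters' processing notes name (taken from RefSeq, GRCm38.p6). The enzymes of arginine use are at chr11:78920787-78960226 (Nos2) and chr10:24915207-24927470 (Arg1). The receptors and lectins are at chr2:14229414-14332023 (Mrc1), chr11:70166623-70170836 (Clec10a), chr6:124304636-124330529 (Cd163) and chr7:101839988-101857190 (Folr2). The remaining members are at chr3:106147554-106167564 (Chil3), chr11:120729485-120732025 (Cbr2) and chr13:36867178-37050244 (F13a1).

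Upstream sequence is shown for the 4 members whose levels moved together across animals, Cbr2, F13a1, Mrc1 and Cd163, and for Chil3, which moved against them. RefSeq windows of 250 bases before the start were matched for 7 of the 10 members, all but Nos2, Clec10a and Arg1. The bases printed end before the first exon of the gene in both RefSeq and GENCODE. They were searched on both strands for the PU.1 core AGGAAG, the STAT6 motif (TTC and GAA with any 4 bases between), the C/EBP motif TTGCNNAA, the TATA box TATAAA and the MAF site TGCTGA, and capitals mark the matches. Cbr2 is at chr11:120732115-120732271 on the minus strand, F13a1 at chr13:37050245-37050494 on the minus strand, Mrc1 at chr2:14229164-14229391 on the plus strand, Cd163 at chr6:124304401-124304635 on the plus strand and Chil3 at chr3:106167565-106167814 on the minus strand.
Cbr2: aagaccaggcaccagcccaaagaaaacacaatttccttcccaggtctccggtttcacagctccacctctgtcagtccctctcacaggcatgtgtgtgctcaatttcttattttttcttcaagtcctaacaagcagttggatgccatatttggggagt
F13a1: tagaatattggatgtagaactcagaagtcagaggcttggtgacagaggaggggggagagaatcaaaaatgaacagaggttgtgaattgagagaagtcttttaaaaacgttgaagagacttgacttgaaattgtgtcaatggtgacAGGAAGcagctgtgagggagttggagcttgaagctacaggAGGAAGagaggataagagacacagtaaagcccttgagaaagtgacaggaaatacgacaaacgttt
Mrc1: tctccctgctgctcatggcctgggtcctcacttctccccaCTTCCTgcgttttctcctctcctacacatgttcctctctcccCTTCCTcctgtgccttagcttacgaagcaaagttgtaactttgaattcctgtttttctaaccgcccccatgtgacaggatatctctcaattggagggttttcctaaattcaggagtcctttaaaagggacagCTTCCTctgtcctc
Cd163: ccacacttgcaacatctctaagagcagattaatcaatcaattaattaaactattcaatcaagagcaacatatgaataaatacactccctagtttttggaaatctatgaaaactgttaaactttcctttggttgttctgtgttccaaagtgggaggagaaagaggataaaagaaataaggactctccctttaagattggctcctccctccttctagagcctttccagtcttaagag
Chil3: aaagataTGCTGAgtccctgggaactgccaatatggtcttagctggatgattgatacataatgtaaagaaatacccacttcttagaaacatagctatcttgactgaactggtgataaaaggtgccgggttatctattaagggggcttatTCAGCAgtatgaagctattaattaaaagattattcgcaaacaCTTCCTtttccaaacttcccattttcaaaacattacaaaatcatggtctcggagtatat

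The PU.1 core was present 3 times in Mrc1, 2 times in F13a1 and once in Chil3, while the printed bases of Cd163 and Cbr2 held none of the motifs. The Cbr2 window had 1 more match to the PU.1 core, 78 bases before the RefSeq start, in bases not printed because GENCODE counts them as exon. F13a1 has another RefSeq start, whose window is not printed. It held 1 match to the PU.1 core, 36 bases before that start. The MAF site was present 2 times in Chil3 and in none of the other sequences printed. Among all 32851 RefSeq windows of 250 bases, 29.5% held the PU.1 core, 16.1% the MAF site, 12.4% the TATA box, 9.56% the C/EBP motif and 5.85% the STAT6 motif. A match is a description of the letters only.

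On the RPKM scale, which is per length, the levels of the members spanned several orders of magnitude. Folr2 was the most abundant at 208 to 308 RPKM over the 18 libraries, and Mrc1 followed at 31.3 to 85.0 RPKM. Chil3 (6.28 to 18.9 RPKM), F13a1 (2.17 to 11.3 RPKM) and Cbr2 (1.67 to 11.0 RPKM) overlapped one another. Clec10a stood at 1.67 to 5.78 RPKM. Nos2 (0 to 1.51 RPKM), Cd163 (0.230 to 0.633 RPKM) and Arg1 (0.228 to 0.593 RPKM) were lowest and overlapped. Arg1 rested on 14 to 37 reads per library and Cd163 on at least 43, so small differences in either were not detectable at this depth.

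**Figure D1:**
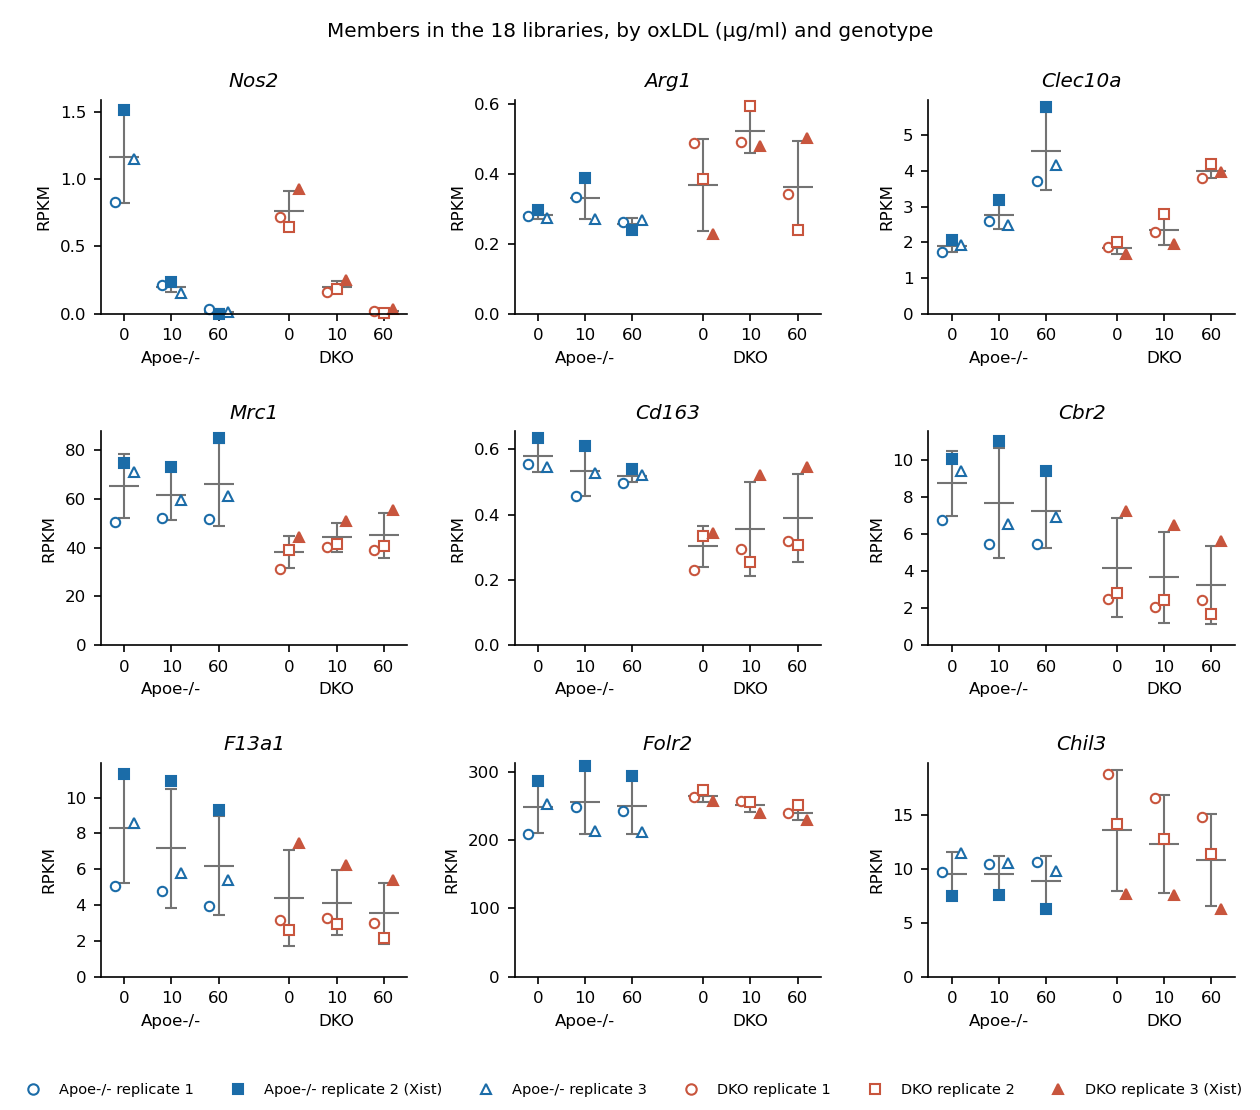
Levels of the 9 members in RPKM (linear axes from 0) in each library, against the amount of oxLDL in µg/ml for Apoe-/- (blue) and DKO (red). Symbols mark replicate numbers, filled symbols the Xist-positive animals, and bars the mean ± SD (n = 3). Nos2 falls and Clec10a rises with oxLDL. Cbr2, F13a1, Mrc1, Cd163 and Chil3 vary more between animals, genotype included, than between treatments.

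To ask which members respond to lipid loading, oxLDL 60 and oxLDL 10 were compared with untreated cells in each genotype. Both comparisons of a genotype share the same untreated libraries. Calls needed both an adjusted p under 0.05 from limma and a change of at least 1.4-fold. Below, ± gives the SE of a log2 difference and the SD of a level in RPKM. At oxLDL 60, 2 of the 9 members were called in Apoe-/- (13.9% of all genes were, 7.13% as higher and 6.78% as lower) and 2 in DKO (12.2% of all genes, 4.87% as higher and 7.31% as lower). In both genotypes they were Nos2, lower, and Clec10a, higher. At oxLDL 10, Nos2 was called lower in Apoe-/- (2.79% of all genes were called, 2.04% as lower) and in DKO (2.26%, with 1.69% as lower), and no other member was. The median log2 fold change over the members was -0.12 in Apoe-/- and -0.14 in DKO at oxLDL 60, beside 0.06 and -0.06 over all genes tested.

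Nos2 was the member with the largest response. In Apoe-/- cells, untreated replicates 1, 2 and 3 held 0.831, 1.51 and 1.15 RPKM of it, those given oxLDL 10 held 0.213, 0.234 and 0.153 RPKM, and those given oxLDL 60 held 0.0387, 0 and 0.0109 RPKM. In DKO cells, untreated replicates held 0.716, 0.648 and 0.930 RPKM, those given oxLDL 10 held 0.159, 0.187 and 0.247 RPKM, and those given oxLDL 60 held 0.0176, 0.00485 and 0.0327 RPKM. In each genotype all untreated libraries were above all oxLDL 10 libraries, and these were above all oxLDL 60 libraries. Counting the members whose libraries did not overlap from untreated cells, there were 4 in Apoe-/- (40.7% of all genes) and 3 in DKO (42.6%) at oxLDL 60, and 2 (20.5%) and 1 (18.9%) at oxLDL 10.

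By limma, the log2 change of Nos2 with oxLDL 60 was -3.42 ± 0.21 in Apoe-/- (adjusted p = 3.22e-09) and -2.86 ± 0.21 in DKO (adjusted p = 2.7e-08). At oxLDL 10 it was -2.05 ± 0.21 in Apoe-/- (adjusted p = 3.8e-05 by limma) and -1.54 ± 0.21 in DKO (adjusted p = 0.000446). These values are on the log2(RPKM + 0.1) scale, which understates changes of a gene this low. In reads, Nos2 had 657 over the untreated Apoe-/- libraries and 11 with oxLDL 60, a level 64.6-fold lower at the same depth (exact 95% interval 35.8 to 130). In DKO it had 431 and 11 reads, a level 40.7-fold lower (interval 22.5 to 82.2). The intervals cover counting error only. In the library listed at 0, 3 reads would equal 0.0155 RPKM.

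From oxLDL 10 to oxLDL 60 Nos2 fell again, with a log2 change of -1.37 ± 0.21 in Apoe-/- (adjusted p = 0.000266 by limma) and -1.33 ± 0.21 in DKO (adjusted p = 0.000373). Nos2 and Clec10a were the 2 members called there in Apoe-/- (6.46% of all genes were called, 2.91% as higher and 3.54% as lower) and in DKO (5.66%, with 1.92% as higher and 3.74% as lower). Between the amounts 3 members did not overlap in Apoe-/- (30.5% of all genes) and 2 in DKO (33.7%). Both Nos2 calls between the amounts were lost with a pseudocount of 1, and the filter of 1 RPKM removes Nos2 from the test. An exact two-sided permutation test of 3 libraries against 3 cannot go below 0.10, and it gave 0.10 for each of the 6 oxLDL comparisons of Nos2.

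Arg1, the other enzyme that uses arginine, was not called in any oxLDL comparison with all libraries. It stood at 0.283 ± 0.012 RPKM untreated, 0.330 ± 0.058 with oxLDL 10 and 0.257 ± 0.015 with oxLDL 60 in Apoe-/- (SD, n = 3). In DKO it stood at 0.367 ± 0.131, 0.521 ± 0.062 and 0.361 ± 0.132 RPKM. The difference of oxLDL 10 from untreated cells in DKO rested on 106 reads against 72 and was 0.45 ± 0.21 on the log2 scale (adjusted p = 0.379 by limma). From oxLDL 10 to oxLDL 60 in DKO, Arg1 differed by -0.46 ± 0.21 (adjusted p = 0.157 by limma). Leaving out replicate 3 of DKO with oxLDL 60, limma called it (-0.68, adjusted p = 0.0495), as it did without the Xist-positive libraries (-0.72, adjusted p = 0.0316).

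Clec10a was the member that rose. In Apoe-/- cells, untreated replicates 1, 2 and 3 held 1.72, 2.07 and 1.92 RPKM of it, those given oxLDL 10 held 2.59, 3.18 and 2.49 RPKM, and those given oxLDL 60 held 3.71, 5.78 and 4.17 RPKM. In DKO cells, untreated replicates held 1.86, 2.00 and 1.67 RPKM, those given oxLDL 10 held 2.30, 2.79 and 1.97 RPKM, and those given oxLDL 60 held 3.80, 4.20 and 3.96 RPKM. In both genotypes the oxLDL 60 libraries lay above all others, and the oxLDL 10 libraries lay above the untreated ones in Apoe-/- but overlapped them in DKO.

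By limma, Clec10a rose with oxLDL 60 by 1.20 ± 0.15 on the log2 scale in Apoe-/- (adjusted p = 1.03e-05) and by 1.07 ± 0.15 in DKO (adjusted p = 3.65e-05). Between oxLDL 10 and oxLDL 60 the rise was 0.69 ± 0.15 in Apoe-/- (adjusted p = 0.00468 by limma) and 0.75 ± 0.15 in DKO (adjusted p = 0.00234). At oxLDL 10 the difference from untreated cells was 0.51 ± 0.15 in Apoe-/-, with an adjusted p by limma that rounds to 0.05 and was not called, and 0.32 ± 0.15 in DKO (adjusted p = 0.362). With the animal as a block in limma, Clec10a was called at oxLDL 10 in Apoe-/- (adjusted p = 0.00141), and it was also called there with a filter of 1 RPKM, a pseudocount of 0.01 or a term for Xist. Clec10a and Mgl2, the gene of the related lectin MGL2, are close in sequence, so that shared reads could be split between them. Mgl2 was lower, at 0.262 to 1.86 RPKM, and was not called with oxLDL.

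**Figure D2:**
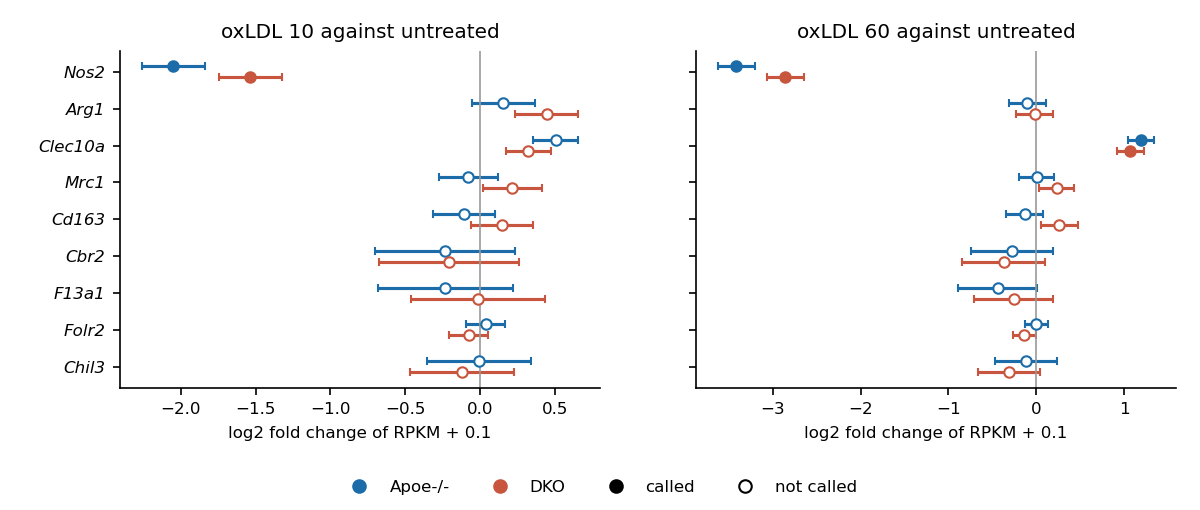
Log2 fold change of RPKM + 0.1 with oxLDL 10 (left) and oxLDL 60 (right) against untreated cells for the 9 members, with bars of 1 SE from limma. Filled points were called, and only Nos2 (-3.42 and -2.86 at oxLDL 60) and Clec10a (1.20 and 1.07) were.

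The difference of the response between genotypes was tested as an interaction term, in which no member was called at either amount. Of all genes, 0.0156% were called at oxLDL 60 and 0 at oxLDL 10, where 246 of 12838 had an unadjusted limma p under 0.05. This fit had no block for the animal, so the spread between animals was part of its error and the test was cautious. With the block no member was called either. The log2 change of Nos2 in DKO minus that in Apoe-/- was 0.56 ± 0.30 at oxLDL 60 (adjusted p = 0.528 by limma) and 0.51 ± 0.30 at oxLDL 10 (adjusted p = 1). The same difference for Clec10a was -0.12 ± 0.21 (adjusted p = 0.861 by limma) and -0.18 ± 0.21 (adjusted p = 1). The median of all genes was itself -0.11 at oxLDL 60 and -0.03 at oxLDL 10. For Nos2 the genotypes differed by -0.53 untreated, by -0.01 with oxLDL 10 and by 0.03 with oxLDL 60, where each had 11 reads. Both interaction values of Nos2 are thus nearly the untreated difference with its sign turned, and do not show a weaker response in DKO.

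The other members were not called with oxLDL. Their log2 fold changes at oxLDL 60 ran from -0.44 (F13a1) to 0.01 (Mrc1) in Apoe-/- and from -0.37 (Cbr2) to 0.26 (Cd163) in DKO. Within each animal, treated and untreated libraries can be set side by side. F13a1 and Cbr2 were lower with oxLDL 60 in 6 of 6 animals, with median log2 differences of -0.32 and -0.33, as was Nos2, and 19.2% of all genes were lower in all animals. Clec10a was the member higher in 6 of 6 animals with oxLDL 60 (19% of all genes) and with oxLDL 10 (14.8%). With oxLDL 10 Nos2 alone was lower in all animals (7.54%). With the animal as a block, limma gave an adjusted p of 0.00212 for F13a1 in Apoe-/- and, in DKO, of 0.0261 for Cbr2, 0.024 for Mrc1 and 0.00262 for Chil3 at oxLDL 60. The fold changes were those of the fit without the block and stayed under 1.4-fold, so that none of them was called.

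The other genes of these programmes were counted in lists without the members, where higher and lower mean called. With oxLDL 60, 7.13% of all genes were called higher and 6.78% lower in Apoe-/-, and 4.87% and 7.31% in DKO. Of 22 genes of classical activation, 19 were lower and 1, the costimulatory ligand Cd86, was higher with oxLDL 60 in each genotype. The medians of the 22 genes were -1.54 in Apoe-/- and -1.44 in DKO. Among those lower were the chemokine Cxcl10 (94.4 to 2.11 RPKM on average in Apoe-/-), the cytokine Il1b (6.26 to 0.364 RPKM) and the formyl peptide receptor Fpr2 (11.8 to 0.669 RPKM). Of 17 tested genes of alternative activation, 2 were higher and 4 lower in Apoe-/-, and 1 was higher and 5 lower in DKO, with medians of -0.20 and -0.08. Called in both genotypes were Ptgs1, the constitutive cyclooxygenase (higher), and the chemokines Ccl17 and Ccl22, the cytokine Il10 and the cadherin Cdh1 (lower). Ccl17 and Cdh1 were near the filter of 0.1 RPKM, at 0 to 0.356 RPKM and 0.0376 to 0.391 RPKM.

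Of 13 tested genes of arginine handling, the transporters Slc7a2 and Slc7a7 and the creatine pathway enzyme Gatm were lower with oxLDL 60 in both genotypes. Slc7a2, a carrier that brings cationic amino acids into macrophages, averaged 8.21 RPKM untreated and 2.33 RPKM with oxLDL 60 in Apoe-/-, and 7.52 and 2.51 RPKM in DKO. Azin1, the antizyme inhibitor that acts on the polyamine pathway, was higher in both, and Slc7a1 and Ddah2 were higher in Apoe-/-. The isoforms Nos1 and Nos3 did not exceed 0.0499 RPKM in any library.

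Of 30 tested genes of the resident type, 6 were higher in both genotypes with oxLDL 60, among them Hmox1 (heme oxygenase), Ednrb (an endothelin receptor) and Nrp1 (neuropilin 1). In both genotypes 3 were lower, the transcription factor Maf, the scavenger receptor Marco and Cd302, and Siglec1 was lower in Apoe-/-. Marco was low throughout, at 0.0230 to 0.666 RPKM. The medians of the 30 genes were 0.01 in Apoe-/- and 0.00 in DKO, beside 0.06 and -0.06 over all genes. Among 14 tested near relatives of the members, Cbr3, of the same reductase family as Cbr2, and Tgm1, a transglutaminase like F13a1, were called higher in both genotypes (log2 changes of 2.09 and 1.84 for Cbr3, and of 0.74 and 0.80 for Tgm1), and none was called lower. Cbr3 stood at 10.2 to 49.0 RPKM, but Tgm1 was near the filter of 0.1 RPKM, at 0.0160 to 0.208 RPKM.

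For 6 of the 9 members the animal, genotype included, and not the treatment went with most of the variation. The share of variance on the log2 scale that lay between the 6 animals, genotype included, was 94.9% for Cbr2, 93.4% for Chil3, 93.4% for F13a1, 92.2% for Mrc1, 85.4% for Cd163 and 71.8% for Folr2. Of all genes, 7.49% had at least 70% of their variance there, and the median gene 31.7%. Genotype alone held 60.3% of the variance for Mrc1, 57.8% for Cd163, 53.5% for Cbr2 and 37.8% for F13a1. It held 13.1% for Chil3 and 0.203% for Folr2. For Nos2 and Clec10a 96.1% and 87.0% lay between the 3 treatments, a share of at least 70% that 13.9% of all genes had. Arg1 had 34.2% between animals and 22.9% between treatments.

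**Figure D3:**
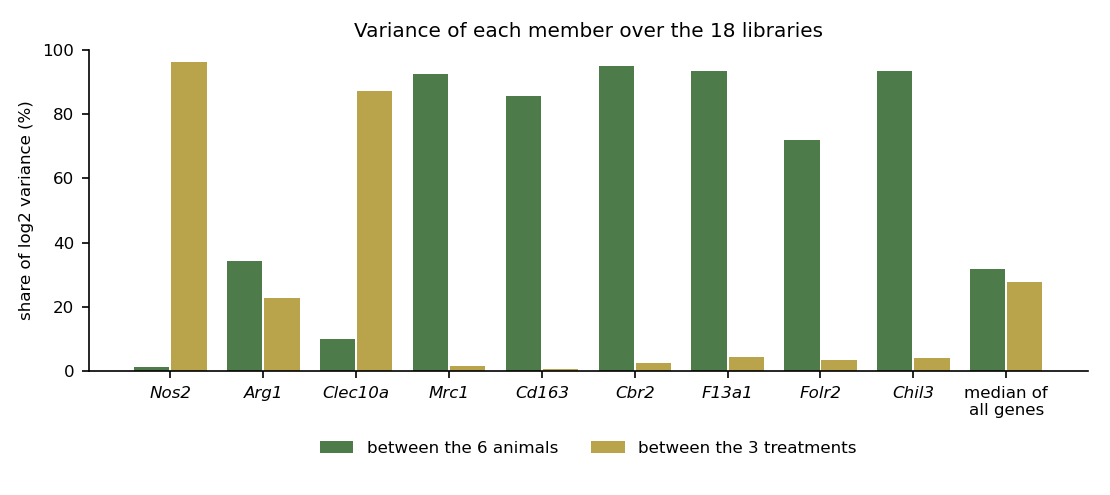
Share of the log2 variance over the 18 libraries between the 6 animals, genotype included (green), or between the 3 treatments (yellow), in percent. Bars give the 9 members and the median of all 12838 genes tested. Nos2 and Clec10a stand at 96.1% and 87.0% between treatments, and Cbr2, Chil3, F13a1, Mrc1 and Cd163 at 85.4% to 94.9% between animals.

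The Xist-positive animal had the highest mean of its genotype in both genotypes for Mrc1, Nos2, Cbr2, F13a1 and Cd163, as it had for 12.8% of all genes. It had the lowest mean for Chil3, as for 34.2% of all genes. Averaged over treatments, Cbr2 stood at 10.1 ± 0.8 RPKM in the Xist-positive Apoe-/- animal, 5.87 ± 0.76 and 7.61 ± 1.57 in the other Apoe-/- animals, 6.45 ± 0.81 in the Xist-positive DKO animal, and 2.34 ± 0.24 and 2.31 ± 0.58 in the other DKO animals (SD, n = 3 libraries of 1 animal). F13a1 followed the same order, at 10.5 ± 1.1, 4.60 ± 0.60 and 6.58 ± 1.74 RPKM in Apoe-/- and 6.37 ± 1.03, 3.14 ± 0.12 and 2.57 ± 0.38 RPKM in DKO. Folr2 was split, as the Xist-positive animal was highest in Apoe-/- (296 ± 11 RPKM beside 233 ± 22 and 226 ± 23) and lowest in DKO (242 ± 14 beside 253 ± 12 and 260 ± 11).

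Cbr2, F13a1, Mrc1 and Cd163 moved together. Over the 18 libraries Pearson's r on the log2 scale was 0.948 for Cbr2 and F13a1, 0.869 for Cbr2 and Mrc1, 0.881 for Cbr2 and Cd163, 0.860 for Mrc1 and F13a1, 0.885 for Mrc1 and Cd163 and 0.789 for F13a1 and Cd163. With group means removed these were 0.931, 0.821, 0.855, 0.880, 0.706 and 0.708. Chil3 ran against them, with r from -0.764 to -0.744. These are descriptions over 18 libraries that share 6 animals. Among 10087 other genes with a mean of at least 1 RPKM, the ones most like Cbr2 were F13a1, Fcrls (0.945) and Fxyd2 (0.925), and those most like F13a1 were Cbr2, Cxcr4 (0.941) and Abca9 (0.941). Most like Mrc1 were Sec14l1 (0.962), Nxpe5 (0.926) and Fcna (0.923), and most like Cd163 were Mrc1, Cbr2 and Fxyd2 (0.879). Folr2 was closest to Pf4 (0.898), Daglb (0.888) and Fam32a (0.885). The pattern of Nos2 was closest to that of Spata13 (0.989), Nfkb1 (0.987) and Nod2 (0.985), and that of Clec10a to Cd200r1 (0.981), Tnfrsf26 and Aph1c (0.978). For Arg1 the closest genes were D430020J02Rik (0.799), Zfp526 (0.748) and Tonsl (0.722).

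Chil3 was most like S100a8 (0.946), Ngp (0.936) and S100a9 (0.922), genes that mark neutrophils and their precursors. Untreated replicates 1, 2 and 3 held 9.72, 7.54 and 11.5 RPKM of Chil3 in Apoe-/- and 18.9, 14.2 and 7.68 RPKM in DKO. Those given oxLDL 60 held 10.7, 6.28 and 9.83 RPKM in Apoe-/- and 14.8, 11.4 and 6.33 RPKM in DKO. The Xist-positive animals were lowest in both genotypes, and the other DKO animals highest. All 8 markers of neutrophils and granulocyte precursors were found, and Ly6g, the defining one, was at or below 0.026 RPKM in every library. Their summed level was 31.3 to 39.8 RPKM in the 6 Xist-positive libraries, 40.7 to 49.7 RPKM in the other Apoe-/- libraries and 48.3 to 85.1 RPKM in the other DKO libraries, and Chil3 followed it with r = 0.954 over the 18 libraries. S100a8 and S100a9 held most of that sum, at 28.4 and 39.9 of 85.1 RPKM in untreated DKO replicate 1. In untreated DKO against Apoe-/- cells, S100a8, S100a9, Camp, Ltf and Ngp differed by 0.45 to 0.78 on the log2 scale. Mpo and Elane differed by -0.24 and -0.34, and none of these was called. The part of the summed markers in the levels of Chil3 was not tested. In bulk RNA, fewer cells of a type and less RNA per cell cannot be told apart. Chil4, a near-identical relative with which Chil3 could share reads, was not analysed here. Stromal markers moved with the animals as well, as all 4 summed to 0.415 to 0.791 RPKM in Xist-positive libraries and 1.79 to 6.28 RPKM in the others. Against the summed neutrophil and granulocyte precursor markers, r was -0.803 for Cd163, -0.795 for Mrc1, -0.789 for Cbr2 and -0.748 for F13a1 over the 18 libraries. The part of either marker list in Cbr2, F13a1, Mrc1 and Cd163 was not tested.

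**Figure D4:**
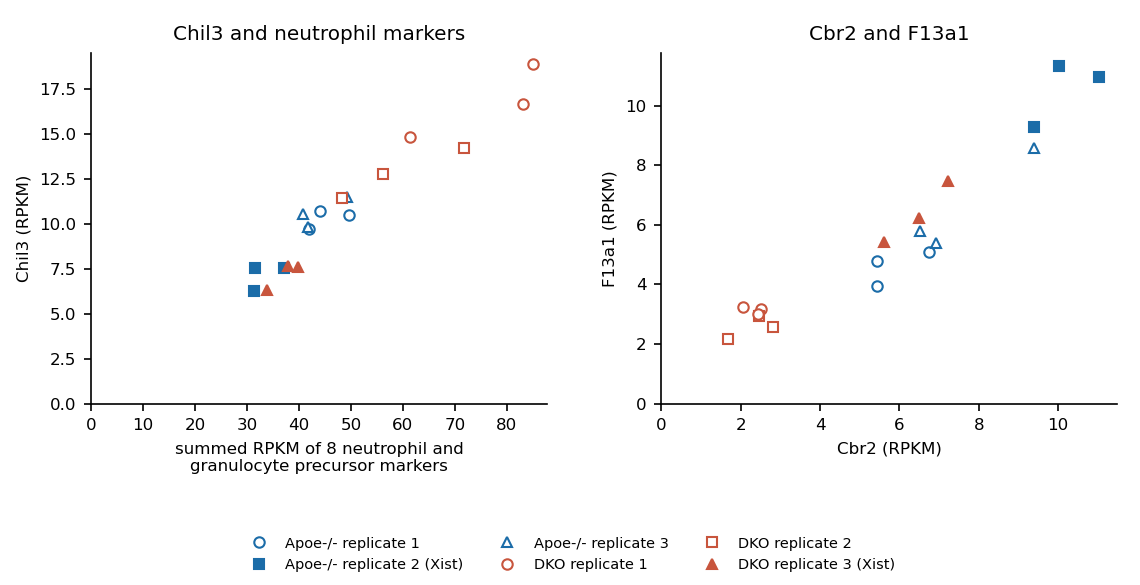
Left, Chil3 against the summed RPKM of 8 markers of neutrophils and granulocyte precursors, and right, F13a1 against Cbr2, each in RPKM for the 18 libraries with the symbols of the plot of levels. Chil3 rises with the marker sum (r = 0.954 on the log2 scale) and F13a1 with Cbr2 (r = 0.948 on the log2 scale), with the 6 libraries of the other DKO animals at the low end on the right. S100a8 and S100a9 hold most of the marker sum.

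To ask whether loss of Treml4 shifts these genes, DKO was compared with Apoe-/- at each treatment. No member was called untreated (0.21% of all genes were), with oxLDL 10 (0.0857%) or with oxLDL 60 (0.125%), and 5, 4 and 2 members had an unadjusted limma p under 0.05 there, beside 17.3%, 9.75% and 7.88% of all genes. In untreated replicates 1, 2 and 3, Cbr2 stood at 6.74, 10.0 and 9.40 RPKM in Apoe-/- and at 2.52, 2.81 and 7.24 RPKM in DKO, with the Xist-positive DKO animal inside the Apoe-/- range. It averaged 8.73 ± 1.75 RPKM in untreated Apoe-/- and 4.19 ± 2.64 RPKM in untreated DKO cells (SD, n = 3), which is -1.19 ± 0.47 on the log2 scale (adjusted p = 0.221 by limma). The difference was -1.16 ± 0.47 with oxLDL 10 and -1.28 ± 0.47 with oxLDL 60. For Mrc1 the untreated replicates held 50.4, 74.7 and 71.1 RPKM in Apoe-/- and 31.3, 39.1 and 44.2 RPKM in DKO. It averaged 65.4 ± 13.2 RPKM and 38.2 ± 6.5 RPKM when untreated, a difference of -0.77 ± 0.20 (adjusted p = 0.0934 by limma). Its libraries and those of Cd163 did not overlap between genotypes when untreated, 2 members beside 19.6% of all genes. With oxLDL 10 there were also 2 members (12.1% of all genes), Mrc1, lower in DKO, and Arg1, higher in DKO (0.479 to 0.593 RPKM against 0.270 to 0.386 RPKM), and with oxLDL 60 there was 0 (16.5%). F13a1 stood at 5.09, 11.3 and 8.57 RPKM in untreated Apoe-/- and at 3.16, 2.59 and 7.46 RPKM in untreated DKO, and Cd163 at 0.555, 0.633 and 0.546 RPKM and at 0.230, 0.335 and 0.343 RPKM. F13a1 overlapped between genotypes through the Xist-positive DKO animal. It differed by -0.99 ± 0.45 untreated (adjusted p = 0.278 by limma) and Cd163 by -0.76 ± 0.21 (adjusted p = 0.105). For Chil3 the difference was 0.43 ± 0.35 (adjusted p = 0.538 by limma).

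The same genes can be read within each kind of animal. Among libraries without Xist, Cbr2 stood at 5.43 to 9.40 RPKM in Apoe-/- and 1.67 to 2.81 RPKM in DKO, and among those with Xist at 9.38 to 11.0 RPKM and 5.62 to 7.24 RPKM. Mrc1 stood at 50.4 to 71.1 RPKM against 31.3 to 41.4 RPKM without Xist, and at 72.9 to 85.0 RPKM against 44.2 to 55.6 RPKM with it. F13a1 stood at 3.93 to 8.57 RPKM against 2.17 to 3.26 RPKM without Xist, and at 9.28 to 11.3 RPKM against 5.42 to 7.46 RPKM with it. For these 3 genes the genotypes did not overlap in either kind of animal, with DKO lower in both, as for 0.241% of all genes (0.756% in either direction). Cd163 did not overlap without Xist (0.458 to 0.555 RPKM against 0.230 to 0.335 RPKM) and overlapped with it (0.538 to 0.633 RPKM against 0.343 to 0.545 RPKM). Chil3 overlapped in both. These ranges rest on 2 animals without Xist and 1 with it per genotype, and the 3 treatments of an animal are not separate animals.

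With a term for the Xist-positive libraries in the limma fit, 4 members were called lower in untreated DKO cells, Cbr2 (adjusted p = 0.00589), F13a1 (adjusted p = 0.0036), Mrc1 (adjusted p = 0.00124) and Cd163 (adjusted p = 0.00851), at the same log2 differences, where 1.34% of all genes were called and 0.351% called lower. In the same limma fit 2 members were called lower with oxLDL 10, Cbr2 (adjusted p = 0.0172) and F13a1 (adjusted p = 0.0358), with 0.584% of all genes called and 0.21% called lower. With oxLDL 60 limma called 3 lower, Cbr2 (adjusted p = 0.012), F13a1 (adjusted p = 0.0445) and Mrc1 (adjusted p = 0.0366), with 0.382% called and 0.179% called lower. When the Xist-positive libraries were left out, 5 members were called untreated (2.43% of all genes were, 0.644% as lower), with log2 differences of -1.55 for Cbr2, -1.18 for F13a1, -0.78 for Cd163, -0.77 for Mrc1 and 0.63 for Chil3. Cbr2 was the only member called then with oxLDL 10 (-1.36, adjusted p = 0.00255 by limma, with 0.849% of all genes called and 0.299% called lower) and with oxLDL 60 (-1.56, adjusted p = 0.00115, with 0.589% called and 0.267% called lower). Neither of these fits had a block for the animal. Their p-values treat the 3 libraries of an animal as separate and measure the spread between libraries. With the animal as a random block and no Xist term, limma called only Mrc1 among the members between genotypes, when untreated (adjusted p = 0.047). That block used 1 correlation of 0.295 for all genes, while 92.2% of the variance of Mrc1 lay between animals, genotype included. For untreated Cbr2 it gave an SE of 0.38, below the 0.47 without a block. Its p-values can thus still understate the spread between animals for these members. Leaving out the Xist-positive libraries was chosen after the data were seen, and it left 2 animals per genotype.

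**Figure D5:**
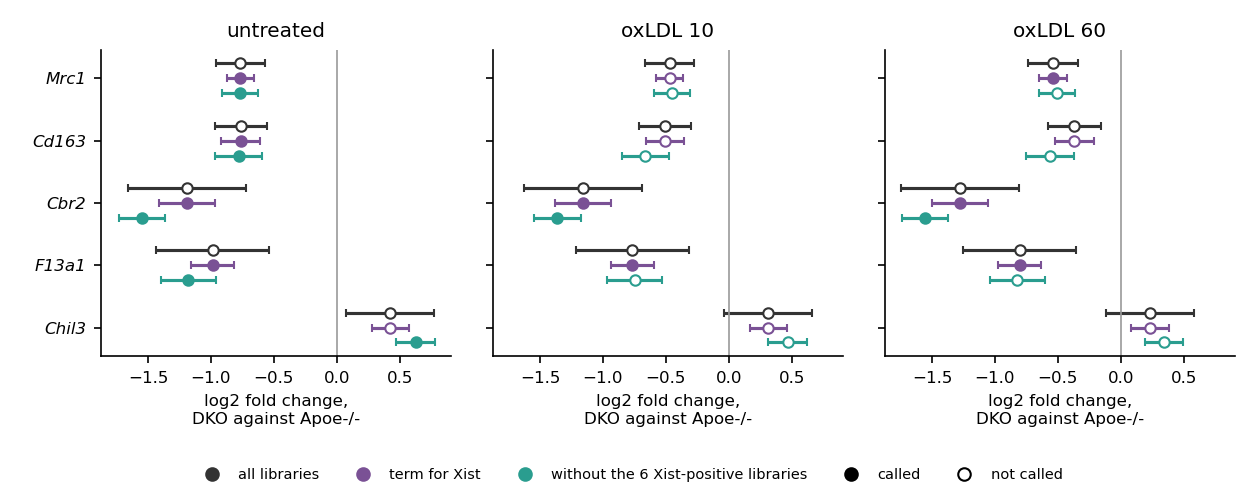
Log2 fold change of RPKM + 0.1 for DKO against Apoe-/- at each treatment for 5 members, with bars of 1 SE from limma, from all libraries (black), with a term for Xist (purple) and without the 6 Xist-positive libraries (green). Filled points were called, and none of these fits has a block for the animal. Cbr2, F13a1, Mrc1 and Cd163 lie below 0 and Chil3 above 0 in every fit shown.

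The remaining members were not called between genotypes in these fits. Untreated Nos2 stood at 1.16 ± 0.34 RPKM in Apoe-/- and 0.765 ± 0.147 RPKM in DKO (SD, n = 3), a difference of -0.53 ± 0.21 on the log2 scale (adjusted p = 0.225 by limma). With oxLDL 10 the difference was -0.01, and with oxLDL 60 both genotypes had 11 reads in all. For Folr2, Clec10a and Arg1 the log2 differences lay between -0.23 and 0.53. Of the 30 other resident-type genes tested, Gas6 was called lower in DKO with oxLDL 60 and none was called untreated or with oxLDL 10. A log2 fold change below 0 was found for 26 of the 30 when untreated, 21 with oxLDL 10 and 26 with oxLDL 60, beside 25.4%, 33.8% and 58.2% of all genes. Their medians were -0.34, -0.24 and -0.35, beside 0.09, 0.05 and -0.02 over all genes. Their Xist-positive animal was highest in both genotypes for 17 of the 30, beside 12.8% of all genes.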

How the data were processed

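RNA-seq was made from 18 libraries of BMDM in 6 groups of 3. The values are RPKM as deposited, which the authors computed per gene after alignment with STAR to mm10, and sequencer and read length differ between the sources. They were tested as log2(RPKM + 0.1) with limma 3.58.1 (R 4.3.3) in 1 fit over all groups, for the 12838 genes at 0.1 RPKM or more in at least 3 libraries, with Benjamini-Hochberg adjustment over all of them. Calls needed an adjusted p under 0.05 and a fold change of at least 1.4. The script was tested on simulated data.

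Whole reads were recovered from the steps of low values, of which 91.6% lay within 0.05 of a whole number (10% by chance), and served for read counts and depth only. Libraries of the same genotype and number deviated together (r from 0.18 to 0.69, median 0.41, in 18 pairs). Those of other numbers had r from -0.61 to 0.29 (median -0.35), so the ranges overlap, and numbers were not shared between genotypes (median -0.17). Deviations from a mean of 3 libraries sum to 0, so a positive r within numbers pulls the r between numbers below 0. The median of -0.35 is therefore no separate support. From the r of the same genotype and number, the number was taken as the animal and used as a block in an alternative. The block was fixed for oxLDL and random for genotype, there with 1 correlation of 0.295 for all genes. Nothing else in the labels ties libraries to animals, so p-values without the block measure the spread between libraries.

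The other alternatives were pseudocounts of 0.01 and 1, filters, fits of the compared groups alone, another scaling, a term for Xist and leaving out each library. The 9 measured members were tested in every comparison, and the other genes named are up to 3 per list and direction called in both genotypes. The members, lists and tests were chosen with earlier results of these data known. Where a gene outside that rule is named, it was named after its values were seen. Spreadsheet dates had replaced 24 symbols.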

Additional observations from a re-analysis of the deposited data

How the results depend on the processing

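Genes called between genotypes when untreated numbered 27, and 17 with no filter, 14 from the compared groups alone, 42 with the replicate block, 172 with the Xist term, 309 without the Xist-positive libraries and 12 to 82 without 1 library. With oxLDL 10 the 11 became 4 (groups alone), 75 (Xist term) and 108 (without Xist-positive libraries). With oxLDL 60 the 16 became 5, 49 and 75 in the same order, and 8 to 19 without 1 library. For the interaction at oxLDL 60 the 2 became 0 with a filter of 1 RPKM, with the groups alone or with a pseudocount of 0.01, 1 with a pseudocount of 1, 5 with the block and 0 to 2 without 1 library. At oxLDL 10 the block gave 1. For oxLDL 10 in DKO the 290 became 449 with the block and 185 to 361 without 1 library.

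Members called between genotypes went from 0 to 1 (block), 4 (Xist term) and 5 (without Xist-positive libraries) untreated, to 2 and 1 with the last pair of settings at oxLDL 10, and to 3 and 1 at oxLDL 60. At oxLDL 10 in Apoe-/- 2 members were called with a pseudocount of 0.01, the block or the Xist term. The filter of 1 RPKM drops Nos2, which left 1 member at oxLDL 60 and between the amounts in both genotypes and 0 at oxLDL 10 in DKO, where Clec10a was not called. A pseudocount of 1 left 1 member between the amounts in both genotypes. Members called between the amounts in DKO numbered 2 to 3 without 1 library, and 3 without the Xist-positive libraries. The block changed no other call of a member.

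Among the members described one by one, directions turned without 1 library for Cbr2 (-0.85 to 0.10), F13a1 (-0.61 to 0.20) and Chil3 (-0.67 to 0.033) at oxLDL 60 in DKO, for Chil3 between genotypes at oxLDL 60 (-0.031 to 0.58) and for the Clec10a interaction at oxLDL 60 (-0.25 to 0.061). None of these was called. Of 60 further pairs of a member and a comparison that were never called, 39 changed sign under at least one alternative. The calls of Nos2 and Clec10a at oxLDL 60 held in every alternative that tested them. The cause of the changes was not tested. Arg1 and Cd163 are limited by their reads.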
